A study of Mus musculus with 6 samples.

Results

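Complex I of the respiratory chain, NADH:ubiquinone oxidoreductase, was described by the 44 of 16426 rows of the authors' deposited table whose symbols begin with Nduf and a subunit letter and number, or with mt-Nd. Assembly factors (Ndufaf genes) were left out of this count. Of the 44 rows, 37 belong to nuclear genes and 7 to genes of mitochondrial DNA (mtDNA). Ndufs3 and Ndufb1 are not analysed here. The members were chosen by name, with earlier results of these data known, and no measured value entered the naming rule.

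Complex I takes electrons from NADH, passes them to ubiquinone and pumps protons across the inner mitochondrial membrane. Its matrix arm holds an NADH module and a quinone module, and its membrane arm pumps the protons. The core subunits carry out the reaction and are shared with bacteria, while accessory subunits surround and stabilise them. Every core subunit of the membrane arm is encoded by mtDNA, which is transcribed inside the organelle as long precursors that are cut into single RNAs. All other subunits are transcribed in the nucleus, made in the cytosol and imported. Hepatocytes, the main cells of the liver, are rich in mitochondria.

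The labels describe bulk liver RNA of 6 male C57/BL mice. In the model group, 3 mice received 20% carbon tetrachloride (CCl4), a solvent that liver enzymes turn into toxic radicals, for 10 weeks, a model of liver fibrosis. The 3 mice of the normal group received saline. Didymin-treated mice, which the design also names, are not analysed here. Nothing in the labels ties the authors' set A (ly_A, 3 libraries) or set B (ly_B, 3 libraries) to either group, so each difference is stated as set A over set B and none as an effect of CCl4.

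The 18 columns of single libraries match no labelled sample and, apart from a look at the first data line, were not used. So no level per mouse, depth or spread between replicates is given. Nuclear and mtDNA-encoded subunits are compared only by the authors' fold changes. A gene was called where the authors' adjusted p was under 0.05. An adjusted p of exactly 1 stood in 2312 rows, taken here as not tested, which left 14114 tested genes with a median log2 fold change of 0.07. All 44 members were among the tested genes.

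Transcripts of complex I were mostly higher in set A and none was called in the other direction. In the authors' deposited table, 35 of the 44 members were called higher in set A, where 18.1% of all tested genes were. Calls towards set B numbered 0 among the members by the authors' deposited table, which the submitters' notes tie to DESeq2, against 17.7% of all tested genes. At an unadjusted p under 0.05, 0 members lay towards set B, against 3045 of the 14114 tested genes. Among the 9 members that were not called were mt-Nd4l, Ndufs1, Ndufv1, Ndufa10, Ndufa4l2, Ndufab1, Ndufb2 and Ndufb8. Ndufs1 was the only member with a negative log2 fold change by the authors' deposited table. At least a 2-fold difference as well as a call was reached by 23 of the 44 members in the authors' deposited table, against 10.9% of all tested genes. The median log2 fold change of the members was 1.08.

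The mtDNA-encoded subunits had larger differences than most nuclear subunits. Their median log2 fold change by the authors' deposited table was 1.51, which is 2.85-fold, and their range ran from 1.23 to 1.92. For the 37 nuclear members the median by the authors' deposited table was 0.99, which is 1.99-fold, and the range ran from -0.28 to 1.31. The medians thus differed by 0.52 on the log2 scale, or 1.43-fold. The ranges overlapped: 6 of the 7 mtDNA-encoded subunits lay above every nuclear member, and 5 nuclear members (Ndufb7, Ndufb9, Ndufs7, Ndufv3 and Ndufa5) lay above mt-Nd3, the lowest of the mtDNA-encoded ones. Called towards set A were 6 of the 7 and 29 of the 37, by the authors' deposited table, where 18.1% of all tested genes were. The difference between the nuclear and the mtDNA-encoded members was not tested.

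**Figure D1:**
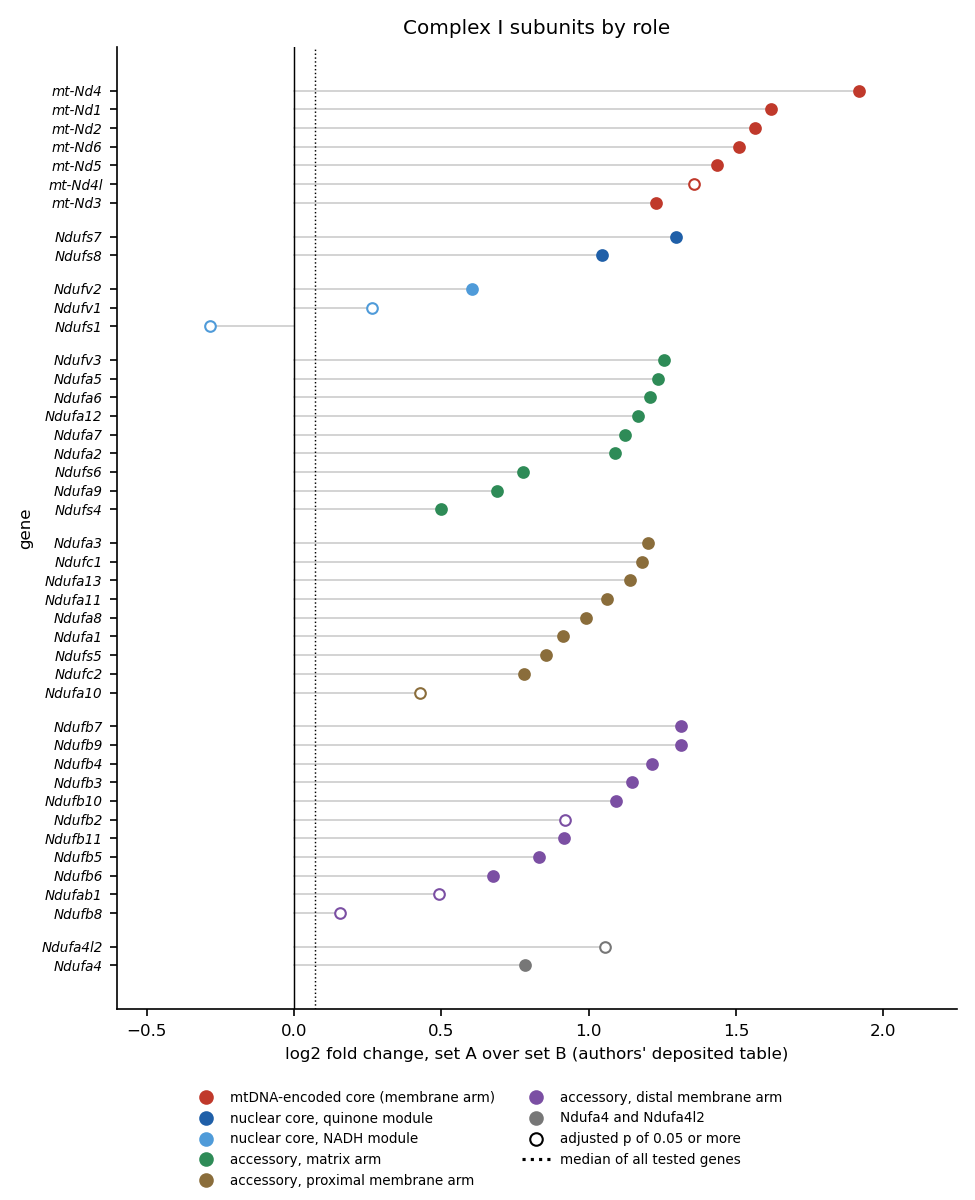
Each point is 1 complex I row, placed by its log2 fold change of set A over set B, from the authors' deposited table, and coloured by role. Filled points have an adjusted p under 0.05, the solid line marks 0, the dotted line marks the median of all tested genes (0.07), and the mtDNA-encoded subunits at the top reach furthest right, up to 1.92.

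The membrane arm's core is made of ND1 to ND6 and ND4L. ND2, ND4 and ND5 resemble sodium-proton antiporters and form proton channels. Of these, mt-Nd4 had the largest difference of all members by the authors' deposited table, 3.78-fold higher in set A (adjusted p = 7.2e-09). mt-Nd2 was 2.96-fold and mt-Nd5 2.70-fold above set B by the authors' deposited table. ND1 helps to form the chamber into which ubiquinone enters, and its transcript was 3.07-fold above set B by the authors' deposited table (adjusted p = 5.39e-08). mt-Nd6, the only protein-coding gene on the light strand of mtDNA, was 2.85-fold above set B by the authors' deposited table (adjusted p = 0.000433). So genes annotated on both strands of mtDNA were called in the same direction. Whether counting used strand is not given, so the value of mt-Nd6 may include reads from the other strand. mt-Nd3, whose protein carries a loop at the joint of both arms, was 2.34-fold higher by the authors' deposited table (adjusted p = 0.00166).

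mt-Nd4l had a value of 2.57-fold towards set A by the authors' deposited table and was not called (adjusted p = 0.0708). mt-Nd4l and mt-Nd3 are the shortest of these genes, at 297 and 348 bases, and had the lowest values of the 7. mt-Nd4l ends inside the start of mt-Nd4, and mt-Nd5 and mt-Nd6 meet end to end on opposite strands. The ends of these 4 genes are shown, 5′ to 3′ from the GENCODE M21 transcripts, because reads across the shared bases can be counted for either neighbour. Each line gives 30 bases, the last of mt-Nd4l, mt-Nd5 and mt-Nd6 and the first of mt-Nd4, and capitals mark the bases that a pair has in common.
mt-Nd4l: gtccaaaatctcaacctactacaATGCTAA
mt-Nd4: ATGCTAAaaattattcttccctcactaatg
mt-Nd5: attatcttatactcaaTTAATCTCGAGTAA
mt-Nd6: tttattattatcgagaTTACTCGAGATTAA
The first pair shares 7 bases on the same strand. The last pair shares 14 bases, with the capitals of mt-Nd6 being the reverse complement of those of mt-Nd5. Neither how the authors' counting treated shared bases nor whether it used strand is given in the sources used here. The values of these 4 genes are uncertain as to shared bases, and those of mt-Nd5 and mt-Nd6 also as to strand. For mt-Nd6 the doubt about strand holds over its whole length.

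The other protein-coding genes of mtDNA were called towards set A as well. In the authors' deposited table, 5 of the 5 tested ones were called, where 18.1% of all tested genes were called higher in set A. The median log2 fold change of the 5 was 1.71 and the lowest value 1.61 by the authors' deposited table. For the mtDNA-encoded complex I genes these values were 1.51 and 1.23, a difference that was not tested. mt-Co2, a subunit of cytochrome c oxidase, was 3.61-fold above set B by the authors' deposited table. mt-Cytb, the cytochrome b of complex III, was 3.39-fold and mt-Co3 3.28-fold above set B by the authors' deposited table (adjusted p of at most 0.00079 for these 3). mt-Atp8 was not tested. Across all 12 tested mtDNA genes, 11 were called and the values by the authors' deposited table ran from 1.23 to 1.92 on the log2 scale.

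Nuclear core subunits were divided between called members and members near no difference, and their log2 values ran from -0.28 to 1.30 in the authors' deposited table. In the NADH module, Ndufv1 encodes the subunit that binds NADH and its flavin, and Ndufs1 and Ndufv2 encode iron-sulfur proteins that carry electrons onward. Only Ndufv2 of these 3 was called, 1.52-fold above set B by the authors' deposited table (adjusted p = 0.0135). Ndufv1 stood at a log2 value of 0.27 and Ndufs1 at -0.28 by the authors' deposited table (adjusted p = 0.36 and 0.381). In the quinone module, Ndufs7 encodes the subunit with the last iron-sulfur cluster before ubiquinone. It had the smallest adjusted p of all members by the authors' deposited table and was 2.46-fold higher in set A (adjusted p = 4.26e-10). Ndufs8, another iron-sulfur subunit, was 2.06-fold above set B by the authors' deposited table (adjusted p = 1.98e-05).

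Of the accessory subunits, 25 of 29 were called towards set A by the authors' deposited table (18.1% of all tested genes were), with a median log2 fold change of 1.06. On the matrix arm, all 9 accessory members placed there in this grouping were called, from 0.50 for Ndufs4 to 1.26 for Ndufv3 by the authors' deposited table. Ndufab1, which was not called, was counted with the distal membrane arm only, and the count of 9 rests on that placing. Ndufs4, whose loss in mice causes a disease like Leigh syndrome, was the called member nearest to the threshold (adjusted p = 0.0431 by the authors' deposited table). Ndufa5, Ndufa6, Ndufa7, Ndufa12 and Ndufa2 lay between 2.13-fold and 2.36-fold above set B by the authors' deposited table. Ndufs6, a zinc-binding subunit, was 1.71-fold and Ndufa9, which lies near the ubiquinone site, 1.61-fold above set B by the authors' deposited table.

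On the proximal membrane arm, 8 of 9 accessory members were called higher in set A by the authors' deposited table, where 18.1% of all tested genes were. Ndufa3 at 1.20 and Ndufc1 at 1.18 on the log2 scale had the largest values there by the authors' deposited table. Ndufa13, also known as GRIM-19 and studied as a cell death regulator, was 2.20-fold and the X-linked Ndufa1 1.88-fold above set B by the authors' deposited table. Ndufa11, Ndufa8, Ndufs5 and Ndufc2 lay between 1.72-fold and 2.09-fold by the authors' deposited table. Ndufa10, which has a fold like nucleoside kinases, was not called, at 0.43 (adjusted p = 0.0698 by the authors' deposited table).

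On the distal membrane arm, 8 of 11 accessory members were called higher in set A by the authors' deposited table, where 18.1% of all tested genes were. Ndufb7 and Ndufb9 had the largest values of all nuclear members by the authors' deposited table, 2.49-fold and 2.48-fold higher in set A (adjusted p = 6.63e-07 and 4.48e-05). Ndufb9 belongs to the LYR-motif proteins, which hold an acyl carrier protein. That carrier, Ndufab1, which also serves mitochondrial fatty acid synthesis, stood at 0.49 and was not called in the authors' deposited table (adjusted p = 0.0869). Ndufb3, Ndufb4 and Ndufb10 lay between 2.14-fold and 2.32-fold above set B by the authors' deposited table, and Ndufb11, Ndufb5 and Ndufb6 between 1.60-fold and 1.89-fold. Ndufb2 had about the value of Ndufb11 (0.92 for both on the log2 scale) but was not called in the authors' deposited table (adjusted p = 0.0537, against 1.64e-05 for Ndufb11). Ndufb8, whose protein is a common antibody marker of assembled complex I, stood at 0.16 by the authors' deposited table (adjusted p = 0.617).

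The naming rule also took a pair of genes whose products are not counted in the complex today. Ndufa4, now placed in cytochrome c oxidase, was 1.72-fold above set B by the authors' deposited table (adjusted p = 0.000695). Its hypoxia-induced paralog Ndufa4l2 had a value of 2.08-fold and was not called in the authors' deposited table (adjusted p = 0.171). Without this pair, 28 of 35 nuclear members were called by the authors' deposited table, where 18.1% of all tested genes were called higher in set A. RefSeq lists pseudogenes or copies of Ndufa11, Ndufa12, Ndufab1, Ndufb4, Ndufs5 and Ndufs6, with which these genes can share reads, so their single values are uncertain.

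Among nuclear genes, longer transcripts went with lower log2 fold changes. Lengths were taken by symbol from GENCODE M21 for 14049 tested genes (99.5%) and all members. Of the 22 nuclear members with a transcript of up to 1000 bases, 20 were called higher in set A by the authors' deposited table, as were 9 of the 11 with over 1000 and up to 2000 bases. None of the 4 longer members was called, namely Ndufs1, Ndufa10, Ndufab1 and Ndufb2. At an unadjusted p under 0.05, Ndufb2 (0.92), Ndufab1 (0.49) and Ndufa10 (0.43) lay towards set A on the log2 scale by the authors' deposited table. The same direction ran through the other nuclear genes. Among these, 35.7% of the 830 with up to 1000 bases were called higher in set A by the authors' deposited table, then 24.1% up to 2000, 16.8% up to 4000 and 11.8% above 4000 bases. Their median log2 fold change by the authors' deposited table was 0.63, 0.28, 0.03 and -0.15 in that order. Against these, the members' shares were 90.9% up to 1000 bases and 81.8% up to 2000 bases by the authors' deposited table, a description with no test.

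Spearman's rho between transcript length and log2 fold change was -0.34 across the 37 nuclear members and -0.21 across 14037 tested nuclear genes. By coding length it was -0.33 for the members and -0.13 for all of these genes. Across the 7 mtDNA-encoded members rho had the opposite sign, at 0.57. These genes share the same 6 libraries and are not independent, so no p is given. Ndufb2 and Ndufab1 have short coding sequences within long annotated transcripts. Counted by coding sequence, 27 of the 31 nuclear members with up to 1000 bases were called by the authors' deposited table, and 2 of the 6 longer ones (Ndufv3 and Ndufa9). Among all tested nuclear genes, 22.6% with a coding sequence of up to 1000 bases were called higher in set A by the authors' deposited table. For those with longer coding sequences the share was 15.9%. Ndufs1 and Ndufv1, core members that were not called, have coding sequences of 2181 and 1392 bases, against 672 for Ndufs7 and 636 for Ndufs8. Length and core function therefore overlap among these members. The part of length in the differences was not tested.

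**Figure D2:**
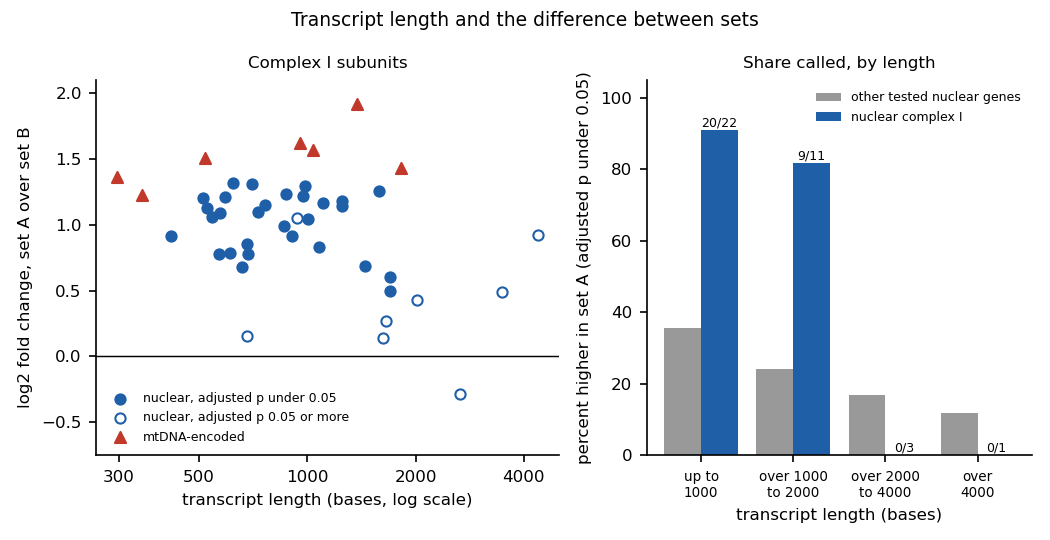
Left, log2 fold change of set A over set B, from the authors' deposited table, against transcript length in bases (log scale) for the complex I members, with open circles for nuclear members that were not called. Right, bars give the percent of tested nuclear genes called higher in set A within each range of length, grey for other genes (35.7% down to 11.8%) and blue for nuclear members, with their counts above the bars.

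Nuclear subunits of the other respiratory complexes were also called towards set A only. Of 42 tested, 29 were called towards set A (69.0%, against 18.1% of all tested genes) by the authors' deposited table, with a median log2 fold change of 0.73. Calls towards set B numbered 0, against 17.7% of all tested genes. At an unadjusted p under 0.05, 0 of these subunits lay towards set B, against 3045 of the 14114 tested genes. Cox7a1, a cytochrome c oxidase isoform of heart and muscle, had a log2 value of 3.86, Cox6b2, the testis isoform of another subunit, 1.73 and the complex III subunit Uqcr11 1.45 by the authors' deposited table (largest adjusted p = 0.0411). Ribosomal proteins had lower shares than the respiratory subunits. In the authors' deposited table, 24 of 79 tested cytosolic ribosomal proteins were called towards set A and 3 towards set B, with a median of 0.38. Of 75 mitochondrial ribosomal proteins, 20 (26.7%) were called towards set A and 4 (5.33%) towards set B by the authors' deposited table, with a median of 0.32. Their median transcript lengths were 878 bases for the cytosolic and 1316 bases for the mitochondrial set, and 908 bases for the nuclear complex I members. Among tested nuclear genes other than complex I members, 35.7% with up to 1000 bases were called higher in set A. With over 1000 and up to 2000 bases the share was 24.1%. No test of the difference between these sets was made, and the part of length in it was not tested.

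**Figure D3:**
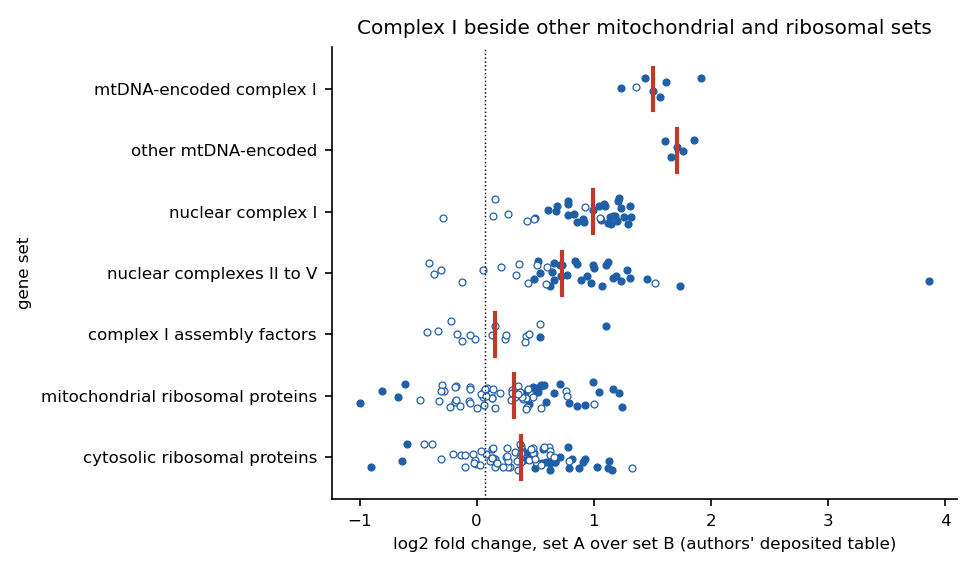
Each point is 1 tested gene, placed by its log2 fold change of set A over set B, from the authors' deposited table, with a row for each gene set. Filled points have an adjusted p under 0.05, the vertical bars are set medians (1.51 for mtDNA-encoded and 0.99 for nuclear complex I), the dotted line is the median of all tested genes, and vertical scatter within a row carries no value.

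Genes that assemble complex I were called towards set A at a share near that of all tested genes. Of 17 assembly factors by the authors' deposited table, 2 were called towards set A and 0 towards set B (also 0 at an unadjusted p under 0.05), and the median log2 fold change was 0.15. The called ones were Ndufaf3, which acts early on the quinone module, at 2.15-fold and Ecsit at 1.46-fold above set B by the authors' deposited table (adjusted p = 0.00162 and 0.0115). The share called higher in set A was 11.8%, against 18.1% of all tested genes, and 17.7% of those were called towards set B. At an unadjusted p under 0.05, 3045 of the 14114 tested genes lay towards set B. The median transcript length of the assembly factors was 1636 bases.

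Genes that maintain, transcribe and process mtDNA were called in both directions, at shares near those of all tested genes. In the authors' deposited table, 3 of 23 were called towards set A (13.0%, against 18.1% of all tested genes) and 5 towards set B (21.7%, against 17.7%), with a median log2 fold change of 0.08. Trmt10c, a subunit of the enzyme that cuts tRNAs out of mitochondrial precursors, stood at -0.95 by the authors' deposited table (adjusted p = 0.000114). Fastkd5, needed to mature mitochondrial RNAs that no tRNA flanks, stood at -0.88 and the mtDNA-binding factor Mterf3 at 0.81 by the authors' deposited table (adjusted p = 0.00273 and 0.00267). Tfam, which packs mtDNA and starts its transcription, was 1.36-fold above set A by the authors' deposited table (adjusted p = 0.045). That call was lost when the deposited p was adjusted over all 16426 rows (adjusted p = 0.0524). The other calls, named after their values were seen, were Top1mt and Slirp towards set A and Lrpprc and Elac2 towards set B.

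Genes listed as mitochondrial regulators were divided as well. The 12 are not all regulators of gene expression, since Sirt3 is a deacetylase and Clpp and Lonp1 are proteases. In the authors' deposited table, 5 of 12 were called towards set A (41.7%, against 18.1% of all tested genes) and 4 towards set B (33.3%, against 17.7%). Among the 5 were Sirt3 and Clpp (log2 value of 0.73, adjusted p = 0.000566), the latter named after its value was seen. The coactivator Ppargc1b, or PGC-1beta, was 3.14-fold and the mitochondrial deacetylase Sirt3 3.11-fold above set B by the authors' deposited table (adjusted p = 0.0103 and 7.69e-12). Ppargc1a, the related coactivator PGC-1alpha, was 1.80-fold and its partner nuclear receptor Esrra 1.35-fold above set B by the authors' deposited table (adjusted p = 0.0394 and 0.0404). The third coactivator of that family, Pprc1, named after its value was seen, was called the other way, 2.24-fold above set A by the authors' deposited table (adjusted p = 1.42e-08). Hcfc1, a chromatin-bound host cell factor, was 2.31-fold above set A by the authors' deposited table (adjusted p = 5.76e-10). These are transcript values and give no measure of the activity of the proteins.

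**Figure D4:**
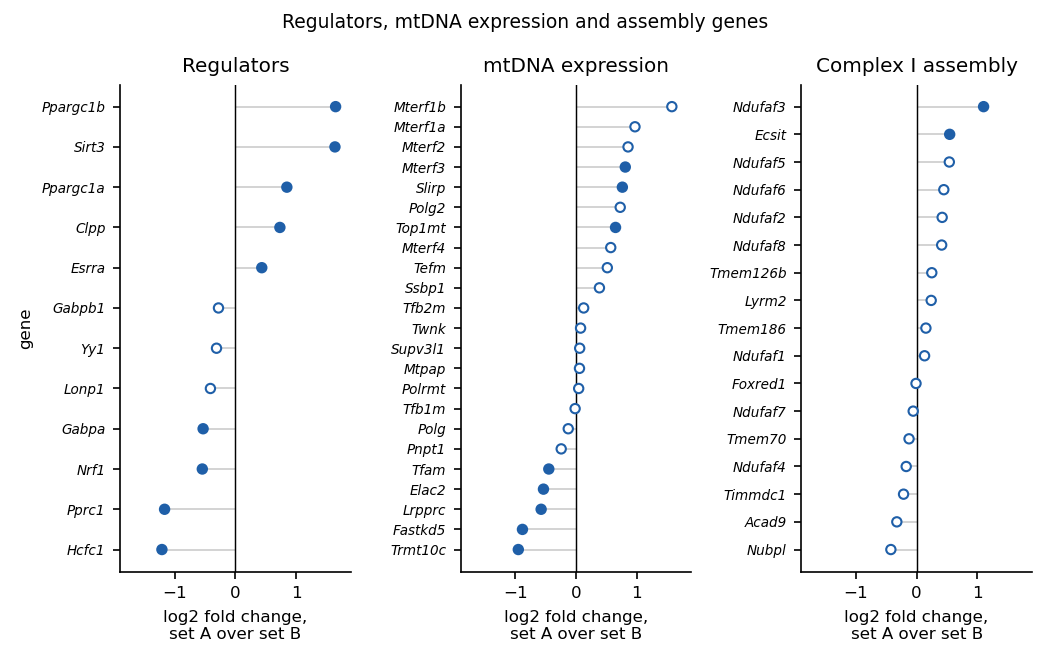
Log2 fold change of set A over set B, from the authors' deposited table, for regulators, mtDNA expression genes and complex I assembly factors, 1 row per gene. Filled points have an adjusted p under 0.05, and calls lie on both sides of 0 in the first 2 panels (5 and 4, then 3 and 5) but only to the right among assembly factors.

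Promoters were searched because most nuclear members were called in the same direction. Promoters from RefSeq (GRCm38.p6, 250 bases before to 50 after the start site) were matched by symbol to 32 of the 37 nuclear members. These letters were looked for on both strands, and among the members no match overlapped one of another motif: GCATGCGC for NRF1, CCGGAAG for ETS factors such as GABPA, AAGATGGCG for YY1 and TCAAGGTCA for oestrogen-related receptors. A gene was counted once where any of its promoter entries held the letters. The YY1 letters were in 5 of the 32 members (15.6%), against 3.25% of the 11006 tested genes with an entry. NRF1 letters were in 3 (9.38%), against 5.43%. ETS letters were in 3 (9.38%), against 18.1%, and those of oestrogen-related receptors in 0, against 0.345%. The search was chosen after the data were seen, and these shares are a description with no test.

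The matches to YY1 letters began 22 to 35 bases after the start site, all in the same orientation, in Ndufc1, Ndufs7, Ndufa9, Ndufs6 and Ndufs4. They are printed 5′ to 3′ on the strand of the gene, with 5 bases on either side, because they share this place and orientation. The letters contain ATG, and whether these matches lie at the start of the coding sequence was not examined. Capitals mark the motif.
Ndufc1 (chr3:51408920-51408938, minus strand): ggaacAAGATGGCGccgtc
Ndufs7 (chr10:80249468-80249486, plus strand): aggccAAGATGGCGgcgct
Ndufa9 (chr6:126849102-126849120, minus strand): gggagAAGATGGCGgccgc
Ndufs6 (chr13:73328436-73328454, minus strand): ccggcAAGATGGCGgcggt
Ndufs4 (chr13:114388046-114388064, minus strand): acaggAAGATGGCGgcggt
Among the NRF1 matches, which are shown for contrast, those of Ndufa8 and Ndufa6 began at -8 and -83 relative to the start site, and Ndufa11 held the letters on both strands.
Ndufa8 (chr2:36049334-36049351, minus strand): gagacGCATGCGCagatg
Ndufa6 (chr15:82354362-82354379, minus strand): gtagaGCATGCGCattgc
Coordinates are of GRCm38.p6, not of the build mm9 that the submitters' processing notes name. The 5 genes with YY1 letters had values from 1.41-fold for Ndufs4 to 2.46-fold for Ndufs7 by the authors' deposited table. No letters of these motifs were found in the promoters of the 5 members not called that had an entry, namely Ndufa10, Ndufab1, Ndufb2, Ndufb8 and Ndufv1. Among the 27 called members with an entry, YY1 letters were in 5, NRF1 letters in 3 and ETS letters in 3, so most held none either. Over all tested genes with an entry the shares were 3.25%, 5.43% and 18.1% in that order. The 5 promoters are too few to set apart from these shares, and no test was made. A match is a description of letters and not of a bound site. The factors' own genes, named after their values were seen, stood at -0.31 for Yy1, -0.55 for Nrf1 and -0.53 for Gabpa on the log2 scale by the authors' deposited table (adjusted p = 0.126, 0.0446 and 0.0319).

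Markers of several liver cell types differed between the sets too. Of 5 hepatocyte markers, 3 (Apoa1, Ttr and Serpina1c) were higher in set A by the authors' deposited table, where 18.1% of all tested genes were. Alb stood at 0.19 and Cps1 at -0.52 on the log2 scale, and neither was called in the authors' deposited table (adjusted p = 0.565 and 0.133). Called towards set A were also 3 of 4 endothelial markers, 1 of 4 macrophage markers, both lymphocyte markers and 1 of 2 erythroid markers by the authors' deposited table. Calls towards set B numbered 0 among the markers, against 17.7% of all tested genes. Of 3 tested stellate cell markers 0 were called by the authors' deposited table, and at an unadjusted p under 0.05 Lrat (-0.81) and Reln (-0.49) lay towards set B and Dcn (0.36) towards set A. Of 3 cholangiocyte markers 0 were called by the authors' deposited table, and 1, Krt19 (0.98), lay towards set A at an unadjusted p under 0.05. The part of these cell types in the complex I differences was not tested. In bulk liver, fewer cells of a type and less RNA per cell cannot be told apart.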

How the data were processed

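Liver RNA of 6 mice was extracted with Trizol and made into libraries with a NEBNext kit, per the labels' protocols. The submitters' processing notes name DESeq2 and the genome build mm9. Which aligner, counter and annotation were used was not given in the sources used here. Per gene, the deposited table holds a log2 fold change, a p-value and an adjusted p-value, which the authors computed for 3 ly_A against 3 ly_B libraries, per the file headers. A positive fold change was read as more RNA in set A, because the table's name puts ly_A first, and the first data line, seen when the table was opened, went that way. The direction of every difference rests on that name and line. Apart from that line, the 18 library columns, which match no sample label, were not used. Depth was therefore not examined, no count test was run and the edgeR fit planned for labelled columns does not apply. Over the 14114 rows with an adjusted p under 1, adjusting the deposited p by Benjamini-Hochberg gave the authors' adjusted p to within a relative 9.47e-13. The adjustment script was tested on simulated data.

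Counts, medians and correlations were computed in Python 3.11.15 with pandas 2.3.3 and scipy 1.17.1. Transcript and coding lengths are those of the APPRIS principal protein-coding transcript in GENCODE M21 with the longest coding sequence, or of the longest where no principal is marked. Members and lists were chosen with earlier results of these data known, and the ribosomal lists were added later. Called members and core subunits are named, except 1 member that is counted but not reported here, and up to 3 called genes of each other list, with Ppargc1a, Tfam and Esrra always. Tried instead were a threshold of 0.01, a 2-fold difference as an added condition, adjustment over all 16426 rows, centring, and splits by length.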

Additional observations from a re-analysis of the deposited data

How the results depend on the processing

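No estimate of error between libraries is given here apart from the authors' p-values. No library could be left out, since the library columns match no sample. No paired analysis was possible because those columns carry no labelled replicate number. For the same reason the planned fits with edgeR and DESeq2 were not run. Counts of calls are over both directions. With a 2-fold difference required as well, calls fell from 35 to 23 of the 44 members, from 29 to 17 of the nuclear members, from 5053 to 2650 of all genes, from 29 to 11 of the nuclear subunits of complexes II to V, from 2 to 1 of the assembly factors, from 8 to 0 of the mtDNA expression genes and from 9 to 4 of the regulators. The 6 mtDNA-encoded calls of complex I numbered 6 under each alternative. At an adjusted p under 0.01, 32 members, 1 assembly factor, 4 mtDNA expression genes and 4 regulators were called. Of the 14114 tested genes, 3526 were called at that threshold. Adjusted over all 16426 rows, 34 members were called (Ndufs4 was lost, at an adjusted p of 0.0502), and 6 mtDNA expression genes (Tfam and Elac2 were lost), and Nrf1 was lost among the regulators, at 0.0519. Of all 16426 rows, 4864 were called under that adjustment. Centred on all tested genes, the medians were 0.92 for nuclear and 1.44 for mtDNA-encoded members. The split by transcript length was chosen after the data were seen. It gave 20 calls and a median of 1.08 for nuclear members up to 1000 bases, and 9 calls and a median of 0.69 for longer ones.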
